A study of Arabidopsis thaliana with 6 samples.

Results

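*KNAT2* (AT1G70510) and *KNAT6* (AT1G23380) are 2 of the 629 genes in the table of ATH1 targets that accompanies these ChIP-seq data. They were taken by locus, and every called peak that overlapped their listed windows was collected from the 6 libraries, which gave 6 peaks of the 5483 deposited, 1 at each gene in every ATH1-GFP library and none in any wild-type library. Both genes encode class I KNOX proteins, homeodomain transcription factors expressed in shoot meristems and at organ boundaries, where they help to keep cells undifferentiated and tune cytokinin and gibberellin levels. KNOX proteins bind DNA as heterodimers with BELL homeodomain proteins, the family of ATH1, so these genes encode candidate partners of the protein that was precipitated. *KNAT2* and *KNAT6* are close paralogs, and in the inflorescence their activity is restricted by the KNOX protein KNAT1 (BREVIPEDICELLUS) and the BELL protein REPLUMLESS (PENNYWISE). Misplaced *KNAT6* activity is known to shorten internodes and turn pedicels downward.

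The ATH1-GFP group consisted of 3 libraries from the *ath1-3* mutant carrying a genomic construct in which the *ATH1* promoter drives ATH1 fused to GFP, and the control group of 3 libraries from wild-type plants without GFP, both precipitated with anti-GFP µMACS microbeads. The study's methods describe the transgenic plants as a single line with 1 copy of the transgene, selected because it complemented *ath1-3*. The labels describe shoots of seedlings grown for 2 wk with 16 h of light, with roots and leaves taken off, and Landsberg *erecta* as the wild type, whereas the series design and the paper name Columbia controls and the paper describes a longer growth in short days. These descriptions were not reconciled here, and a difference of accession between the groups cannot be told apart from the presence of the fusion if the labels hold. The trimmed shoots of seedlings were pooled and hold several cell types, so fewer cells with ATH1 at a site and weaker occupancy per cell cannot be told apart.

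After removal of duplicate tags (mapped reads), the ATH1-GFP libraries held 10194418 to 15584829 tags and the wild-type libraries 3450182 to 13518524. Peaks were used at a false-discovery rate below 0.001, at which the ATH1-GFP libraries had 990 to 1593 peaks and the wild-type libraries 356 to 665. A stretch covered by a peak of every ATH1-GFP library is called a shared region, and one that no wild-type peak overlapped a free region. Of 721 shared regions, 309 (42.9%) were free.

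Each KNOX gene had a single site. At *KNAT2* the peaks ran from 26575230 to 26575684, 26575225 to 26575678 and 26575239 to 26575652 on chromosome 1 (TAIR10) in ATH1-GFP replicates 1, 2 and 3, and the stretch they shared was 414 nt long, from 26575239 to 26575652. At *KNAT6* they ran from 8305135 to 8305576, 8305179 to 8305565 and 8305137 to 8305572 on the same chromosome, and shared 387 nt from 8305179 to 8305565. The peak edges of the libraries thus nearly coincided. Wild-type peaks were absent from both windows, at this threshold and among all deposited peaks, as they were from 418 of the 629 listed windows (66.5%).

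**Figure D1:**
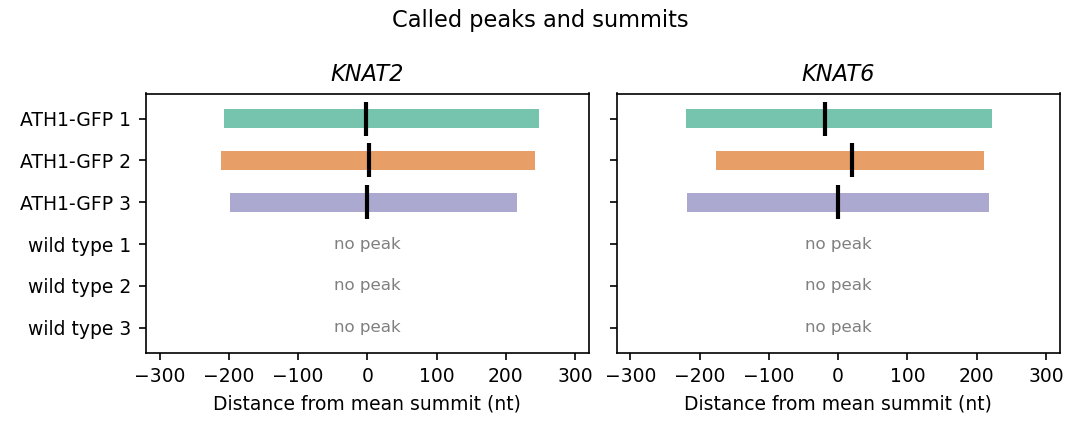
Called peaks at *KNAT2* (left) and *KNAT6* (right) in the 6 libraries, drawn as bars against the distance in nucleotides from the mean summit of the 3 ATH1-GFP libraries; black ticks mark the summits. The *KNAT2* summits lie within 4 nt of each other and the *KNAT6* summits within 39 nt, and the wild-type rows are empty.

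The listed window of *KNAT2* spans 10085 nt (26573486 to 26583570) and that of *KNAT6* 8729 nt (8296923 to 8305651), both longer than the median of 4636 nt over the listed genes. The *KNAT2* site began 1753 nt from the low-coordinate edge of its window, with 7918 nt between it and the other edge. The *KNAT6* site lay at the opposite end of its window, 86 nt from the high-coordinate edge, and its far end was 472 nt from that edge. According to the header of the table, windows extend 3000 nt upstream and 1500 nt downstream of the coding sequence. If these lengths apply in full, the *KNAT6* site lay outside the coding sequence on either strand, whereas the *KNAT2* site did so only if the low-coordinate side is upstream. Strand, exons and transcript ends were not analysed here.

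Neither site fell in the window of a second listed gene. The strongest region of a listed gene was free and confined to 1 listed window for 128 of 629 genes (20.3%). In the RefSeq gene order (TAIR10.1), the neighbours of *KNAT2* were AT1G70505 and the noncoding AT1G70518, with *CRK2*, a receptor-like kinase gene, beyond the latter. Those of *KNAT6* were *MENG*, an enzyme gene of phylloquinone synthesis, and the long noncoding RNA gene AT1G05797. None of these neighbours was in the table of targets.

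At *KNAT2*, the fold enrichment, the ratio of tags over the summit to the background of the same library, was 4.63, 4.03 and 2.89 in ATH1-GFP replicates 1, 2 and 3, with a mean of 3.85 ± 0.885 (SD, n = 3). These values were at the percentiles 97.3, 95.4 and 93.2 of all peaks of their libraries and ranked 44 of 1593, 58 of 1226 and 68 of 990. The *KNAT2* site was thus among the stronger peaks of every library, and in each it exceeded the library median, by 2.12, 1.82 and 1.51 times. The −log10 q values, by which peaks are selected at 3, were 53.2, 38.4 and 25.7.

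At *KNAT6*, the fold enrichment was 3.65, 3.12 and 2.49 in replicates 1, 2 and 3, with a mean of 3.09 ± 0.581 (SD, n = 3). The percentiles among all peaks were 94.2, 88.8 and 87.2, and the values were 1.67, 1.41 and 1.31 times the library medians. Each library thus placed *KNAT6* lower than *KNAT2* but well above its typical peak. The −log10 q values were 32.2, 20.6 and 16.7. Replicate 3 had the lowest fold enrichment at both genes, as it did at 282 of the 309 free regions (91.3%).

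**Figure D2:**
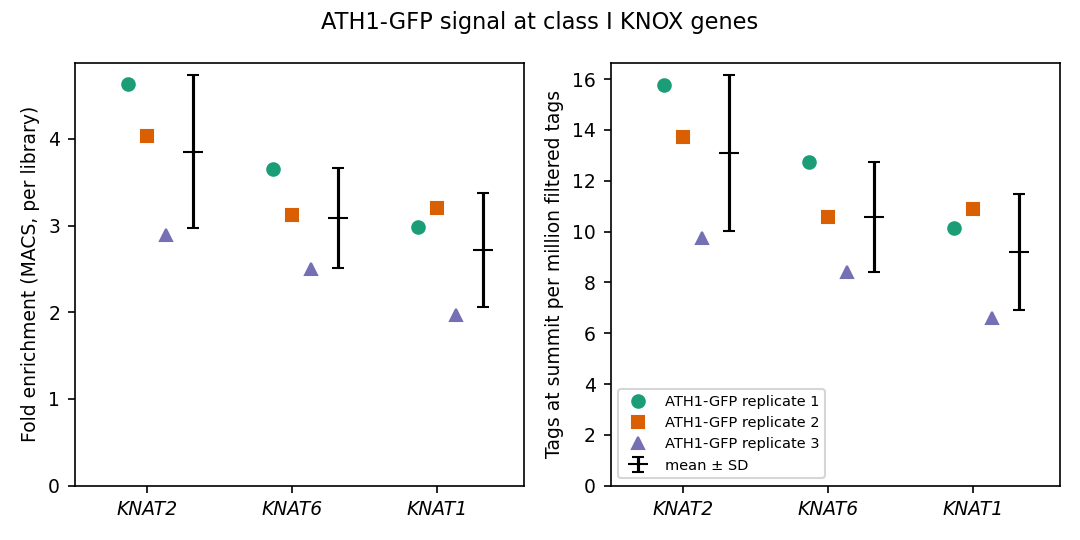
Fold enrichment (left) and tags at the summit per 1000000 filtered tags (right) at the sites of *KNAT2*, *KNAT6* and *KNAT1*, with 1 symbol per ATH1-GFP library and the mean ± SD (n = 3) beside them. Within every library the *KNAT2* value lies above that of *KNAT6*, while the values of *KNAT6* and *KNAT1* change order in replicate 2.

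The tags behind these ratios were 165, 140 and 152 over the *KNAT2* summit and 133, 108 and 131 over the *KNAT6* summit. Replicate 3 was thus not the library with the fewest tags at either site. Its genome-wide background, computed from the filtered tags, their extension and the genome size that the authors set, was 51.9 tags, against 34.8 and 34.0 in replicates 1 and 2. The background implied by the fold enrichment equalled this genome-wide value to within 0.05 tags in all libraries at *KNAT2*. At *KNAT6* it did so in replicates 2 and 3, and in replicate 1 it was 35.7 tags, slightly above. Peaks measured against the genome-wide background made up 45.1 to 48.1% of those in the ATH1-GFP libraries, and for them the ratio of 2 sites in a library is set by their tags alone.

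Scaled to 1000000 filtered tags, the *KNAT2* summit had 15.8, 13.7 and 9.75 tags in replicates 1, 2 and 3, a mean of 13.1 ± 3.07 (SD, n = 3). The *KNAT6* summit had 12.7, 10.6 and 8.41, a mean of 10.6 ± 2.16 (SD, n = 3). On this scale replicate 3 was at 0.661 of the mean of the other libraries for *KNAT2* and at 0.721 for *KNAT6*, and the median of this ratio over the free regions was 0.760.

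The question whether the paralogs differed was addressed within libraries, since both sites were measured in each. The fold enrichment at *KNAT2* was higher than at *KNAT6* by 0.978 in replicate 1, by 0.915 in replicate 2 and by 0.397 in replicate 3, on average by 0.763 ± 0.319 (SD, n = 3), and so in 3 of 3 libraries. As a ratio, *KNAT2* was 1.27, 1.29 and 1.16 times *KNAT6*. Flipping the signs of these differences in an exact permutation test, two-sided, gave *P* = 0.25, the smallest value that 3 libraries allow (0.375 after Benjamini-Hochberg adjustment over the 3 pairs of class I KNOX genes compared). The ranges of the genes over libraries overlapped, from 2.89 to 4.63 for *KNAT2* and from 2.49 to 3.65 for *KNAT6*, so the order was seen within libraries and not between them.

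*KNAT1* (AT4G08150), a class I KNOX gene that shapes internodes and pedicels, was also in the table. Its free region (chromosome 4, 5150706 to 5151141) was enriched by 2.99, 3.20 and 1.96 times in replicates 1, 2 and 3 (mean 2.72 ± 0.661, SD, n = 3), and also lay in the window of AT4G08151. *KNAT2* was higher than *KNAT1* by 1.13 ± 0.447 on average (SD, n = 3), in 3 of 3 libraries (*P* = 0.25 in the same exact test, adjusted *P* = 0.375). *KNAT6* was higher by 0.371 ± 0.401 (SD, n = 3), in 2 of 3 libraries, and lower in replicate 2 (*P* = 0.5 in the same exact test, adjusted *P* = 0.5). *KNAT6* and *KNAT1* thus differed by less than the spread between libraries. The class I gene *STM* (AT1G62360), needed to form and maintain the shoot meristem, was not in the table, so 3 of 4 class I KNOX genes were listed. The free region in the window of the listed AT1G62370, close to *STM* in locus number, had a mean fold enrichment of 3.29. Its distance from *STM* was not analysed here. Of the 27562 protein-coding genes in the RefSeq table, 597 were listed (2.17%).

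The number of peaks in each window was compared between the groups to ask whether the sites depended on the GFP fusion. It was 1 in each ATH1-GFP library and 0 in each wild-type library at both genes, and the groups did not overlap (two-sided exact permutation test, *P* = 0.1 for each gene, the smallest value that 3 libraries against 3 allow). The paper's stated rule selects genes for this pattern, so it is a description of the members and not independent evidence. As counted here, not every listed window showed the pattern. Among the listed windows, 425 of 629 (67.6%) had more peaks in every ATH1-GFP library than in every wild-type library, and 344 (54.7%) had exactly 1 peak per ATH1-GFP library and none in the wild type. A free region was found for both KNOX genes and for 436 of all listed genes (69.3%).

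A missing wild-type peak is informative only where one could have been called. Among wild-type peaks measured against the genome-wide background, the lowest fold enrichment called at the threshold was 2.56 in replicate 1, 1.72 in replicate 2 and 2.06 in replicate 3. The *KNAT2* values in all ATH1-GFP libraries exceeded these limits. At *KNAT6* they all exceeded those of replicates 2 and 3, but the lowest *KNAT6* value, 2.49, was below the limit of wild-type replicate 1, the library with the fewest tags. A site with the fold enrichment of *KNAT6* in replicate 3 would therefore fall below the lowest value called in that library at this threshold. Peaks deposited below the threshold were not used for these limits. Fold enrichment is relative to the background of each library, so the limits are only a guide. The local background at the sites in the wild type is not known from a peak list.

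**Figure D3:**
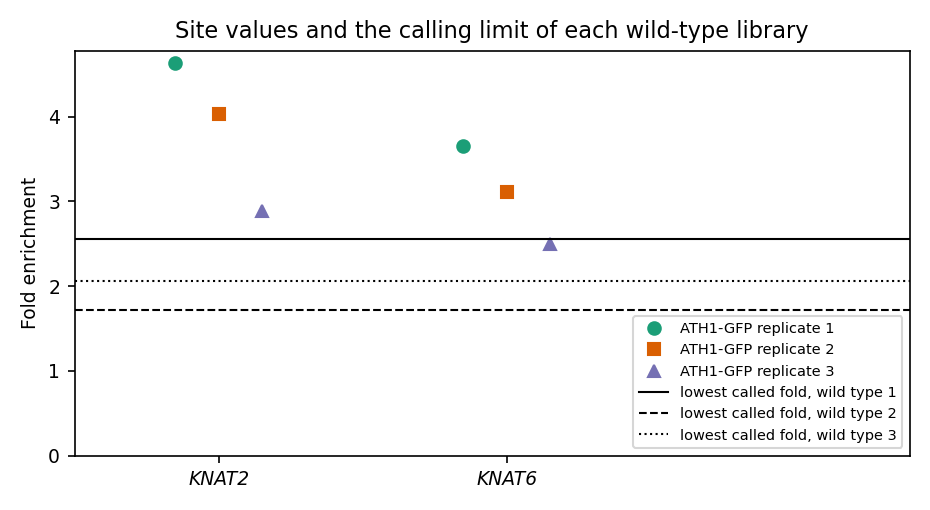
Fold enrichment at *KNAT2* and *KNAT6* in the 3 ATH1-GFP libraries (symbols), with the lowest fold enrichment called against the genome-wide background in each wild-type library (horizontal lines at 2.56, 1.72 and 2.06). Only the *KNAT6* value of replicate 3, at 2.49, falls below a line.

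Peaks around the sites were looked for as well. The nearest other ATH1-GFP peaks lay 44433 to 44649 nt from the *KNAT2* region, where all 3 libraries had a weaker peak (fold enrichment 2.30, 2.03 and 1.83). From the *KNAT6* region they lay 31959 to 32972 nt away, with a fold enrichment of 1.94, 2.23 and 1.70. The nearest wild-type peak was 79238 nt from *KNAT2* and 31809 nt from *KNAT6*, both in wild-type replicate 2, the deepest of the control libraries. No other shared region thus lay closer than 44649 nt to the *KNAT2* region or 33062 nt to the *KNAT6* region. The one nearest to *KNAT2* was free, whereas the one nearest to *KNAT6* was overlapped by a wild-type peak. The nearest other free region was 79117 nt from the *KNAT6* region.

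Summits, which the choice of the genes did not use, were reproducible. At *KNAT2* they were at 26575435, 26575439 and 26575437 in replicates 1, 2 and 3, a range of 4 nt, and only 2 of the 309 free regions, this one included, had a range as small. At *KNAT6* they were at 8305336, 8305375 and 8305355, a range of 39 nt, and 73 of the 309 had a range as small. Over the free regions, the median range was 84 nt (3 to 2198 nt), and over the 50 strongest of them it was 28 nt (4 to 98 nt). At *KNAT1* the summits were spread over 227 nt. The *KNAT2* summits were thus tightly placed also for a strong site, whereas those of *KNAT6* were within the range of such sites. All of these positions come from tags extended to 300 nt, without a fragment model.

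**Figure D4:**
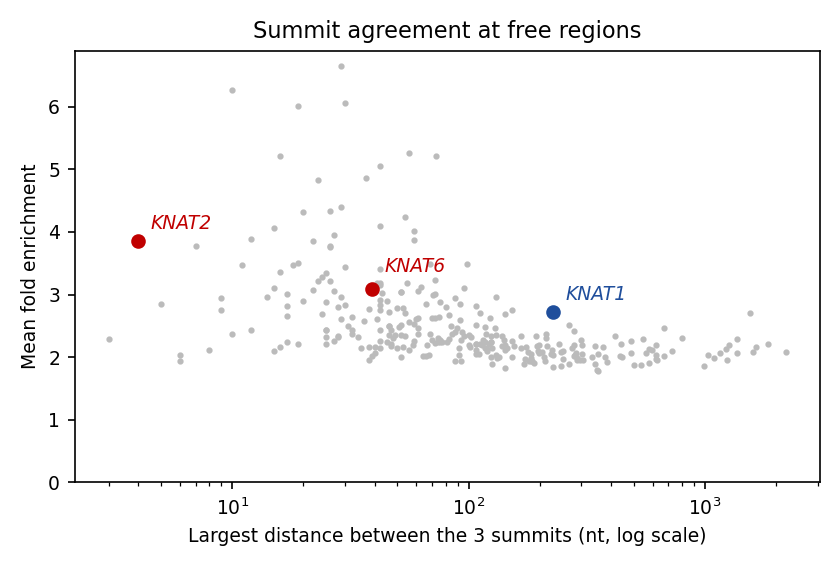
Mean fold enrichment of the 309 free regions (gray points) against the largest distance between the summits of the 3 ATH1-GFP libraries (nucleotides, log scale). *KNAT2* lies at 4 nt and a mean of 3.85, *KNAT6* at 39 nt and 3.09, and *KNAT1* at 227 nt and 2.72.

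In width the peaks were ordinary. The *KNAT2* peaks were 455, 454 and 414 nt long and the *KNAT6* peaks 442, 387 and 436 nt, against library medians of 445, 460 and 468 nt. The summit lay near the middle of each peak, with 45.2 to 47.9% of the peak before it at *KNAT2* and 45.6 to 50.8% at *KNAT6*.

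By mean fold enrichment, *KNAT2* was at rank 22 and *KNAT6* at rank 46 of the 309 free regions, whose median was 2.29. Regions with a higher value than *KNAT2* in all 3 libraries numbered 17, and those lower in all 3 numbered 282. For *KNAT6* the corresponding numbers were 34 and 239. The neighbours in this order were not separated by more than their spread: AT4G23720, just above *KNAT2*, had 3.851 ± 0.784 (SD, n = 3), and the region just below, in the windows of AT1G77655 and AT1G77660, 3.78 ± 0.916. *KNAT6* stood between *BOP1* (3.10 ± 0.611) and *BOP2* (3.07 ± 1.03), genes for BTB-ankyrin proteins that act in organ boundaries. In replicate 2, *KNAT6* and *BOP2* were both at 3.12.

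**Figure D5:**
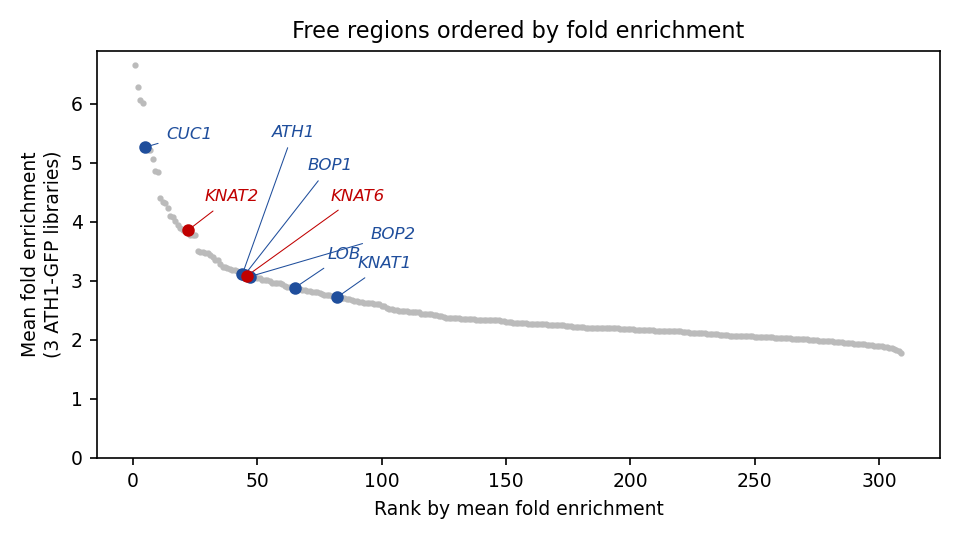
The 309 free regions sorted by fold enrichment averaged over the ATH1-GFP libraries (gray), with *KNAT2* at rank 22 and *KNAT6* at rank 46 (red) and the other listed genes of the KNOX and BELL gene lists (blue). *ATH1*, *BOP1*, *KNAT6* and *BOP2* occupy ranks 44 to 47. Promoter and coding sequence of *ATH1* are also in the transgene, and any effect of this on the *ATH1* value was not tested.

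Likeness to each gene was measured as the Euclidean distance between log2 fold enrichments over the 3 ATH1-GFP libraries. The free regions nearest to *KNAT2* were those of AT4G23720 (distance 0.0623), AT2G23690 (0.0663) and *ATBET12* (AT4G14455, 0.104). Those nearest to *KNAT6* were in the windows of *ROT3* (AT4G36380, 0.0922), which encodes a cytochrome P450 of brassinosteroid synthesis, *OLEO4* (AT3G27660, 0.0928), an oleosin gene, and of *HMGB4* and AT2G17556 together (0.0943). With values from 3 libraries, this measure orders regions by level more than by pattern.

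Of 36 genes in the lists around the KNOX and BELL families, 8 were in the table of targets, and all 8 had a free region and no wild-type peak in their window. Over all 629 listed genes, 69.3% had a free region and 66.5% had no wild-type peak in the window, so both traits are common. The lists were drawn up with the listed genes known, and at the share of 2.17% for all protein-coding genes nothing can be read from a list of 2 to 5 genes without a listed member. The median of their mean fold enrichment was 3.10, beside 2.33 for the strongest regions of all 629 listed genes. None of the 5 class II KNOX and *KNATM* genes was listed, and neither were *OFP1* and *OFP5*, for OVATE proteins that bind KNOX and BELL partners. Among 13 BELL genes, *ATH1* itself was the only one listed (3.11 ± 0.412, SD, n = 3), and *RPL*, for REPLUMLESS, was not. The *ATH1* region was 1387 nt long, against a median of 350 nt over the free regions. The transgene also carries *ATH1* promoter and coding sequence, and whether this added copy contributed tags there was not tested. Among 8 genes grouped here as regulators of KNOX expression, *BOP1*, *BOP2*, *CUC1* and *LOB* were listed and *AS1*, *AS2*, *CUC2* and *CUC3* were not. Whether each of them, *LOB* included, regulates KNOX genes was not tested. None of 4 hormone genes downstream of KNOX proteins (*IPT7*, *GA20OX1*, *GA2OX2* and *GA2OX4*) was listed. *CUC1*, a NAC gene of organ boundaries, ranked 5 and was above *KNAT2* in each library, between 3.63 in replicate 3 and 6.16 in replicate 1. *LOB*, another boundary gene, ranked 65, with a mean of 2.88 ± 0.293 (SD, n = 3). Absence from the table says only that a gene did not pass the authors' selection, and peaks around unlisted genes were not analysed here.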

How the data were processed

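The authors sequenced single-end reads of 50 nt; Bowtie2 and SAMtools are named in the submitters' processing notes, with TAIR10 as the build. Peaks were called by the authors in each library with MACS 2.0.10.20130915, without control, with tags extended to 300 nt, 1 tag kept per position, 90000000 as effective genome size and q below 0.05. The fold enrichment deposited is the authors' ratio of summit to background, the larger of the genome-wide and the 10000-nt local one. The −log10 p and −log10 q values were deposited by the authors as MACS gave them. The pileup deposited by the authors is a signal, in extended tags. The authors' table of targets holds averages over the ATH1-GFP libraries, which were not used for the values given here. The table's header states a minimum overlap of 50 nt between replicates.

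Peaks with −log10 q above 3 were kept, and overlap meant at least 1 bp. The value of a gene is that of the peaks forming its strongest free region. Background was recovered as (pileup + 1)/fold enrichment − 1. Overlap code was tested on simulated data. Fold enrichment was not tested between groups, and was set only against the lowest values called in the wild-type libraries. Replicate numbers were not used as pairs, since no source links them. The 3 replicates limit precision. *P* values take libraries as the units, and those at the smallest possible value are set by the number of libraries and not by their spread. The members and gene lists were chosen with earlier results of these data known. The genes named are the members, their neighbours, genes of the lists and the 3 nearest profiles per member. AT4G08151 is named because its window holds the *KNAT1* region. AT1G62370 was added outside these groups, for its locus number close to that of *STM*. Symbols came from RefSeq (TAIR10.1), which matched 620 of 629 loci, with common names for *KNAT1*, *RPL* and other list genes. Alternatives were stricter and looser thresholds, overlaps and exclusions, each library left out, and summit tags scaled to library size. Motifs and proteins were not analysed here, because no sequence was used. Python 3.11.15, numpy 2.4.6, pandas 2.3.3 and matplotlib 3.10.9 were used.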

Additional observations from a re-analysis of the deposited data

How the results depend on the processing

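No alternative reversed a difference or removed a site. Changed thresholds, overlaps and exclusions, and omitted wild-type libraries, left the fold enrichment of both genes as it was. None of the alternatives could have removed a site, so the keeping of both sites adds no evidence. The lowest −log10 q at the sites was 16.7, far above the cut-offs, and neither window held a deposited wild-type peak. The ATH1-GFP peaks at each site nearly coincided, which meets an overlap of 50%. Asking for fewer ATH1-GFP libraries, or leaving out any library, only relaxes the rule. *KNAT2* and *KNAT6* kept 1 free region each at a false-discovery rate below 0.0001, with every deposited peak, when peaks had to share 50% of the shorter one, with every deposited wild-type peak excluded, with peaks in at least 2 ATH1-GFP libraries and with each library left out. Leaving out 1 library moved the fold enrichment between 3.46 and 4.33 for *KNAT2* and between 2.80 and 3.39 for *KNAT6*, and their difference between 0.656 and 0.946. It moved *KNAT2* minus *KNAT1* between 0.877 and 1.29, and *KNAT6* minus *KNAT1* between 0.222 and 0.599, the former without ATH1-GFP replicate 1 and the latter without replicate 2. The number of listed genes with a free region ranged from 434 to 504 under the same omissions. Tags per 1000000 filtered tags in place of fold enrichment, a different unit, gave 13.1 for *KNAT2* and 10.6 for *KNAT6*, with a difference of 2.52. Taken as pairs by replicate number (a replicate block), the difference in peaks per window stayed at 1 for both genes (exact sign-flip permutation test, *P* = 0.25, the smallest possible). The paper's rule for listing genes asks for this pattern, so the test adds no evidence. No source ties equal numbers together, and over 185 regions with a peak in all 6 libraries, the deviations of equal-numbered libraries correlated at 0.414, -0.676 and -0.0895, and not every library correlated best with its own number. With 3 libraries per group no test here could pass 0.05, and depth limits the lack of wild-type peaks most in replicate 1.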
